A study of Rattus norvegicus with 12 samples.

Results

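The mast cell genes followed here, 10 by name, were measured in laser-microdissected rat bronchi. They are the chymases Cma1, Mcpt1l1 and Mcpt2, the tryptases Tpsab1 and Tpsb2, the carboxypeptidase Cpa3, the receptor Kit, the IgE receptor chains Fcer1a and Ms4a2, and the histamine-forming enzyme Hdc. The genes were chosen by symbol, with the probe set of highest mean signal over all 12 arrays standing for each. Of the 10 names 9 were found among 14217 genes with a probe set, and no probe set carried the symbol Mcpt2. The 3 groups of male Wistar Han rats, 6 to 7 weeks old when obtained, differed in exposure and in the lesion sampled. Fibrotic bronchi (n = 3) were intraluminal fibrous lesions with the wall beneath them from rats that inhaled 200 ppm 2,3-pentanedione (PD), a butter-flavouring vapour, for 6 h a day on 12 days. Non-fibrotic bronchi (n = 3) were airway branches free of fibrosis from rats with the same exposure. Control bronchi (n = 6) were analogous airway walls from rats that breathed filtered air. Both kinds of exposed bronchi came in part from the same rats, and the labels do not tie an array to a rat, so p-values between them take the arrays as independent.

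Mast cells mature in tissues from blood-borne progenitors and depend on Kit, the receptor of stem cell factor. Antigen that cross-links IgE on the high-affinity receptor, to which Fcer1a gives the IgE-binding chain and Ms4a2 a signal-amplifying chain, makes the cells release granules. The granules hold histamine, made from histidine by Hdc, and proteases bound to proteoglycan, among them chymases, tryptases and Cpa3. In rats, mast cells of mucosa and those of connective tissue carry different chymases, and both lie in the airway wall.

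The 250 bases before the start site are shown for Mcpt1l1 and Hdc, the 2 genes called in fibrotic against control bronchi, and for the proteases Cma1 and Cpa3, whose fibrotic arrays lay above all non-fibrotic ones. The sequences are RefSeq's, of build GRCr8, at chr15:33390134-33390383 (Cma1), chr15:33876896-33877145 (Mcpt1l1), chr2:104673238-104673487 (Cpa3) and chr3:134318705-134318954 (Hdc), all on the minus strand and written 5′ to 3′. Capitals mark GATAA or its reverse complement TTATC, the core letters that GATA factors such as Gata2 bind.
Cma1: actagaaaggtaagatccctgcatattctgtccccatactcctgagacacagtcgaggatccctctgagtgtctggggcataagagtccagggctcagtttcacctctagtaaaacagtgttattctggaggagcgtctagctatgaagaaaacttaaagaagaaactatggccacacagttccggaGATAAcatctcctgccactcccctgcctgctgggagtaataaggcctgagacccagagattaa
Mcpt1l1: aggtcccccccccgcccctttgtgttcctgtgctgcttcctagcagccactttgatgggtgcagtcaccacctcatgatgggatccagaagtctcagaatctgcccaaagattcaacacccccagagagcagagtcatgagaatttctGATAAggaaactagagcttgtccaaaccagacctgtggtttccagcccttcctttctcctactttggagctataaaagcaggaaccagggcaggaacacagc
Cpa3: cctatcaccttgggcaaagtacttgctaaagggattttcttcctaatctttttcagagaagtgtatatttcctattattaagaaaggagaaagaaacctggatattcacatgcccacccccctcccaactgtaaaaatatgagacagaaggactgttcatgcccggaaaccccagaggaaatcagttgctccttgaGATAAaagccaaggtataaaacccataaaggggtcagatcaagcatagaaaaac
Hdc: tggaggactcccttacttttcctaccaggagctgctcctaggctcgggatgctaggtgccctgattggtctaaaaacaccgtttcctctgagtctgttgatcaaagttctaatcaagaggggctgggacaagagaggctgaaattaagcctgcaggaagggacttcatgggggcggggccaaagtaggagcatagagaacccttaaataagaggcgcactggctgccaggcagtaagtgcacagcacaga
Upstream sequence was found for 8 of the 9 measured genes. GATAA occurred on either strand in 5 of the 8 (Cma1, Mcpt1l1, Tpsab1, Cpa3 and Fcer1a), against 23.5% of 33469 promoters of the same length. Of these genes Cma1, Mcpt1l1 and Cpa3 had their highest mean in fibrotic bronchi, Tpsab1 in non-fibrotic bronchi and Fcer1a in controls. Kit and Tpsb2, with their highest mean in fibrotic bronchi, held none, as did Hdc. CATGTG, letters bound by the factor Mitf, occurred in 3 of the 8 (Tpsb2, Cpa3 and Fcer1a), against 12.1% of promoters. A match to these letters is a description and not a binding site.

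Signals were MAS5 values, analysed as log2 without a pseudocount. Each array had been scaled to a 2% trimmed mean near 500, so values describe shares of amplified RNA, and in microdissected tissue fewer mast cells and less RNA per mast cell cannot be told apart. Probe sets for bacterial RNAs absent from the samples reached 6.52 on the log2 scale at most, over 84 values, and signals at or under 6.52 are called below the absent level. A fold change against a group that lies wholly below that level is given as "at least", measured from it. Poly-A control transcripts averaged 10.07 (log2) in exposed arrays, 2.32 in controls 1 and 2 and 10.35 in controls 3 to 6. The 3′ to 5′ ratio of Gapdh averaged 2.03 (log2) in exposed arrays, 1.60 in controls 1 and 2 and 0.78 in controls 3 to 6. Controls 3 to 6 also stand in a separate range of deposited sample numbers, a split called the number range here. Differences from each control set are given for Mcpt1l1, Cpa3, Fcer1a and Hdc. For genes outside the mast cell genes they are given against all controls only. At an adjusted p under 0.01 (limma), 1779 of all genes differed in fibrotic bronchi against all controls. The number was 286 against controls 1 and 2 only and 2428 against controls 3 to 6 only.

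Against controls, 1 of the 9 genes rose in fibrotic bronchi (Mcpt1l1) and 1 fell (Hdc), at an adjusted p under 0.01 (limma, Benjamini-Hochberg over all 31042 probe sets). Of all genes, 4.13% rose and 8.38% fell in that comparison. No gene of the 9 was called in non-fibrotic bronchi against controls, where 0.183% of all genes rose and 0.436% fell, although 2 had an unadjusted p under 0.05 (27.7% of all genes). None was called between fibrotic and non-fibrotic bronchi, where 1.47% rose and 3.83% fell, although 6 had an unadjusted p under 0.05 (27.2% of all genes). In fibrotic against control bronchi 4 of the 9 had an unadjusted p under 0.05 (37.3% of all genes). At an adjusted p under 0.05 the first comparison gave 2 genes that rose and 1 that fell (10% and 12.4% of all genes). The second then gave 2 that fell, Fcer1a and Kit, and none that rose (3.72% and 2.84% of all genes). The third gave 4 that were higher in fibrotic bronchi, Cma1, Cpa3, Kit and Fcer1a, and none lower (5.64% and 6.99%). Of these 4, Fcer1a was below the absent level on all arrays of both groups, and its difference was 0 with such values set to that level. The median difference over the 9 genes was 0.94 on the log2 scale for fibrotic against control bronchi, -0.49 for non-fibrotic against control and 2.80 for fibrotic against non-fibrotic. Over all genes these medians were 0.10, 0.00 and 0.00. With values below the absent level set to that level, a choice made after seeing the data, the medians over the 9 genes were 0.48, -0.16 and 0.75. Arrays of fibrotic and control bronchi did not overlap for 3 of the 9 genes, 2 with all fibrotic arrays higher (15.1% of all genes) and 1 with all lower (13.4%). Those of non-fibrotic and control bronchi did not overlap for 2 genes, both lower in non-fibrotic bronchi (6.37% of all genes, with 8.4% higher). Those of fibrotic and non-fibrotic bronchi did not overlap for 5 genes, 4 higher (14.1%) and 1 lower (13.3%) in fibrotic bronchi.

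**Figure D1:**
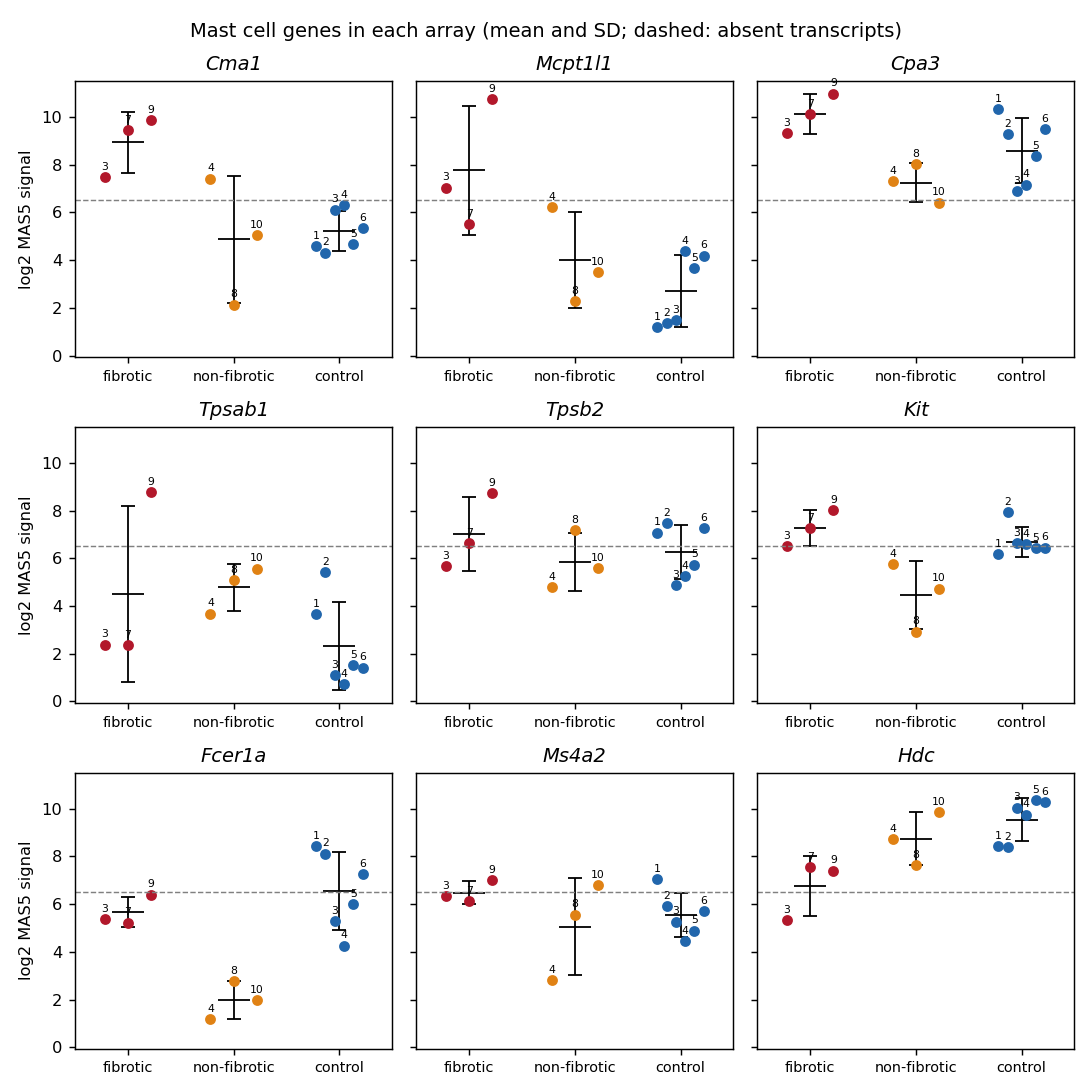
Log2 MAS5 signal of the 9 measured genes on every array of fibrotic (n = 3), non-fibrotic (n = 3) and control (n = 6) bronchi, with the replicate number above each point, the mean and SD in black, and the absent level of 6.52 dashed. Cma1 lay above the dashed line on all 3 fibrotic arrays and below it on all 6 controls, while Hdc was lower on every fibrotic array than on any control.

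Cma1 encodes the alpha chymase, which in rats is also named Mcpt5 and cleaves angiotensin I and matrix proteins. Its log2 signal was 7.48, 9.45 and 9.88 in fibrotic bronchi, 7.42, 2.14 and 5.05 in non-fibrotic bronchi, and 4.31, 5.00 and 6.30 (lowest, median, highest) in controls. All 3 fibrotic arrays were above every other array, and all 6 controls were below the absent level. The fibrotic mean was at least 5.34-fold higher than in controls. The fitted difference was 3.72 ± 0.92 (log2, SE), with a limma adjusted p of 0.0102 that just missed 0.01. Its unadjusted p of 9.7e-04 passes an unadjusted limit of 0.001 with a fold over 2. Against non-fibrotic bronchi the difference was 4.07 ± 1.06 (adjusted p = 0.0245), and it was 2.12 with arrays below the absent level set to that level. Non-fibrotic bronchi differed from controls by -0.35 ± 0.92 (adjusted p = 0.839), a difference smaller than its error, with 1 of 3 non-fibrotic arrays above the absent level.

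Mcpt1l1 encodes a chymase of the Mcpt1 family, for which RefSeq lists the name rMCP-1. Its signal was 7.04, 5.50 and 10.74 in fibrotic bronchi, 6.22, 2.29 and 3.50 in non-fibrotic bronchi, and 1.19, 2.58 and 4.37 in controls (lowest, median, highest). The fibrotic arrays stood above all controls but spread widely, and fibrotic 7 was itself below the absent level. Mcpt1l1 rose in fibrotic bronchi by 5.05 ± 1.18 (log2, SE, limma adjusted p = 0.00725), and from the absent level the fibrotic mean was at least 2.36-fold higher than in controls. The call rested on a narrow margin: the difference was 3.56 without fibrotic 9 (adjusted p = 0.0602) and 5.41 without fibrotic 3 (adjusted p = 0.0216). Leaving out non-fibrotic 10 or control 1, 2, 3 or 5 gave adjusted p-values between 0.0104 and 0.0163. The difference was 6.49 against controls 1 and 2 alone (adjusted p = 0.0327) and 4.33 against controls 3 to 6 alone (adjusted p = 0.0239). Between fibrotic and non-fibrotic bronchi the arrays overlapped and the difference was 3.75 ± 1.36 (adjusted p = 0.101).

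Cpa3, the carboxypeptidase that trims peptides beside chymase in mast cell granules, was above the absent level on 11 of 12 arrays. It read 9.31, 10.11 and 10.98 in fibrotic bronchi, 7.32, 8.01 and 6.41 in non-fibrotic bronchi, and 6.90, 8.82 and 10.32 in controls (lowest, median, highest). The fibrotic arrays lay above the non-fibrotic ones without overlap, and the controls spread across both. The difference between fibrotic and non-fibrotic bronchi was 2.88 ± 0.76 (log2, SE), a 7.37-fold difference (limma adjusted p = 0.0255), which passes 0.05 and not 0.01. Fibrotic bronchi differed from controls by 1.55 ± 0.66 (adjusted p = 0.118). That difference was 0.34 against controls 1 and 2 alone and 2.15 against controls 3 to 6 alone (adjusted p = 0.840 and 0.0229). Non-fibrotic bronchi differed from controls by -1.34 ± 0.66 (adjusted p = 0.207).

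The tryptases, trypsin-like proteases stored in granules as heparin-bound tetramers, showed no called difference. Tpsb2 read 5.69, 6.64 and 8.72 in fibrotic bronchi, 4.79, 7.16 and 5.60 in non-fibrotic bronchi, and 4.87, 6.40 and 7.48 in controls (lowest, median, highest). Tpsab1 read 2.38, 2.37 and 8.77 in fibrotic bronchi, 3.68, 5.08 and 5.56 in non-fibrotic bronchi, and 0.72, 1.46 and 5.43 in controls. Groups overlapped for both genes, and for Tpsab1 only fibrotic 9 was above the absent level. The limma adjusted p for fibrotic against control bronchi was 0.555 for Tpsb2 and 0.280 for Tpsab1, and fitted differences were 0.74 ± 0.78 and 2.21 ± 1.35 (log2, SE). Without fibrotic 9, the highest array for both genes, the difference was -0.11 for Tpsb2 and 0.074 for Tpsab1 (adjusted p = 0.951 and 0.977).

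Kit, the receptor tyrosine kinase for stem cell factor, was low in non-fibrotic bronchi. It read 6.51, 7.28 and 8.02 in fibrotic bronchi, 5.75, 2.92 and 4.73 in non-fibrotic bronchi, and 6.17, 6.52 and 7.94 in controls (lowest, median, highest). All 3 non-fibrotic arrays were below every other array and below the absent level. Below that level too were 3 of 6 controls and 1 of 3 fibrotic arrays. The fibrotic mean was at least 1.68-fold higher than in non-fibrotic bronchi (2.80 ± 0.73 on the log2 scale, limma adjusted p = 0.0244). Non-fibrotic bronchi differed from controls by -2.23 ± 0.63 (adjusted p = 0.0496), with the control mean at least 1.13-fold higher. With values below the absent level set to it, these differences were 0.75 (fibrotic against non-fibrotic) and -0.27 (non-fibrotic against control). Fibrotic and control bronchi differed by 0.57 ± 0.63 (adjusted p = 0.577).

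Fcer1a, the chain that binds IgE, had its lowest signals in the same arrays. It read 5.37, 5.23 and 6.39 in fibrotic bronchi, 1.17, 2.77 and 1.97 in non-fibrotic bronchi, and 4.26, 6.62 and 8.42 in controls (lowest, median, highest). The non-fibrotic arrays were below all others, but fibrotic arrays were below the absent level too, as were 3 of 6 controls. Non-fibrotic bronchi differed from controls by -4.58 ± 0.87 (log2, SE, limma adjusted p = 0.0113). The difference was -0.71 with values below the absent level set to it, since most of it lay under that level. The difference was -6.30 against controls 1 and 2 alone and -3.73 against controls 3 to 6 alone (adjusted p = 0.0339 and 0.0119). With the number range as a block its adjusted p was 0.00644. Fibrotic bronchi differed from non-fibrotic by 3.69 ± 1.00 (adjusted p = 0.0289), with no fold given because both groups were wholly below the absent level. Fibrotic bronchi differed from controls by -0.89 ± 0.87 (adjusted p = 0.516).

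Ms4a2, the beta chain of the same receptor, read 6.32, 6.11 and 7.01 in fibrotic bronchi, 2.80, 5.55 and 6.81 in non-fibrotic bronchi, and 4.45, 5.49 and 7.03 in controls (lowest, median, highest). The groups overlapped throughout, and limma adjusted p-values were 0.446 for fibrotic against control bronchi, 0.726 for non-fibrotic against control and 0.384 for fibrotic against non-fibrotic. A second Ms4a2 probe set of lower mean signal read 4.17, 6.27 and 7.97 in fibrotic bronchi and 5.04, 1.28 and 3.54 in non-fibrotic bronchi, and it was not called either (adjusted p = 0.116 between them).

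Hdc, histidine decarboxylase, ran opposite to Mcpt1l1 and was the only gene of the 9 called as falling in fibrotic against control bronchi. Basophils, some other leukocytes and gastric endocrine cells also express it. It read 5.31, 7.55 and 7.40 in fibrotic bronchi, 8.73, 7.62 and 9.86 in non-fibrotic bronchi, and 8.39, 9.90 and 10.35 in controls (lowest, median, highest). Every fibrotic array was below every non-fibrotic and every control array. Hdc fell by 2.78 ± 0.60 on the log2 scale in fibrotic bronchi against controls (limma adjusted p = 0.00445). Controls 1 and 2, at 8.44 and 8.39, were lower than controls 3 to 6, which lay between 9.75 and 10.35. Against controls 1 and 2 alone the difference was -1.65 (adjusted p = 0.318) and against controls 3 to 6 alone it was -3.34 (adjusted p = 0.00104). The difference was -2.06 without fibrotic 3 (adjusted p = 0.0403), and leaving out any one of controls 3 to 6 gave adjusted p-values between 0.0101 and 0.0116. Fibrotic bronchi differed from non-fibrotic by -1.98 ± 0.70 (adjusted p = 0.0902), and non-fibrotic from control by -0.80 ± 0.60 (adjusted p = 0.412).

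**Figure D2:**
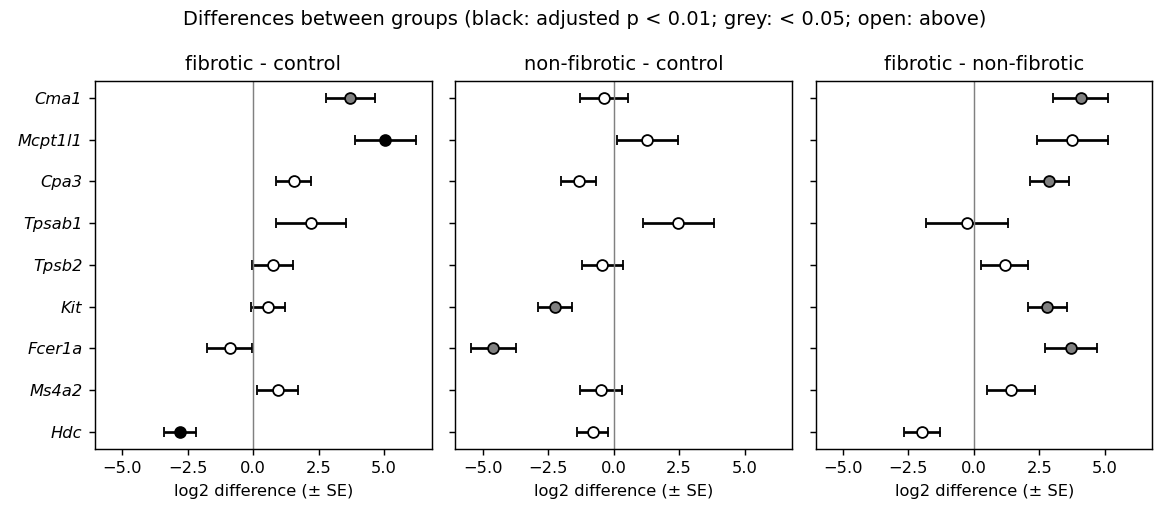
Fitted log2 differences with their standard errors for the 9 genes in the 3 comparisons, with black points at an adjusted p under 0.01, grey under 0.05 and open points above. Mcpt1l1 at 5.05 and Hdc at -2.78 are the black points, both in fibrotic against control bronchi.

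Fibrotic 9 had the highest signal of the 3 fibrotic arrays for 8 of the 9 genes, the exception being Hdc, and for 41% of all genes. That array had the highest median signal of the 3, 7.74 (log2) against 7.37 and 7.42, and the fewest genes below the absent level, 3091 against 3944 and 3928. Its poly-A controls averaged 8.02, against 9.39 and 10.68 in fibrotic 3 and 7, and the part of these differences in the count was not tested. By group means, 6 of the 9 genes were above the absent level in fibrotic bronchi, 2 in non-fibrotic bronchi and 4 in controls, and Cpa3 and Hdc were above it in all 3. No gene was above it on every array.

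The control bronchi differed among themselves. Cpa3 read 10.32, 9.27 and 9.48 in controls 1, 2 and 6, and 6.90, 7.17 and 8.37 in controls 3, 4 and 5. Fcer1a read 8.42, 8.11 and 7.25 in the same first 3 arrays and 5.28, 4.26 and 5.98 in the others. Tpsb2 and Ms4a2 had the same order, so 4 of the 9 genes read higher in controls 1, 2 and 6 than in controls 3, 4 and 5. That order, picked after the values were seen, held for 7.89% of all genes. It crosses the number range, since control 6 belongs with controls 3 to 5 by sample number. Keratin 5, a basal epithelial gene, had it too, at 8.83, 10.01 and 9.51 against 3.89, 2.81 and 3.84, and so did 4 of 12 further granule proteases. Among controls the summed signal of 9 T and natural killer cell markers ranged between 8.66 and 12.73 (log2), and that of 5 neutrophil markers between 9.31 and 13.07, whereas that of 10 epithelial markers ranged between 15.69 and 16.72. The part of these cells in the spread was not tested.

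**Figure D3:**
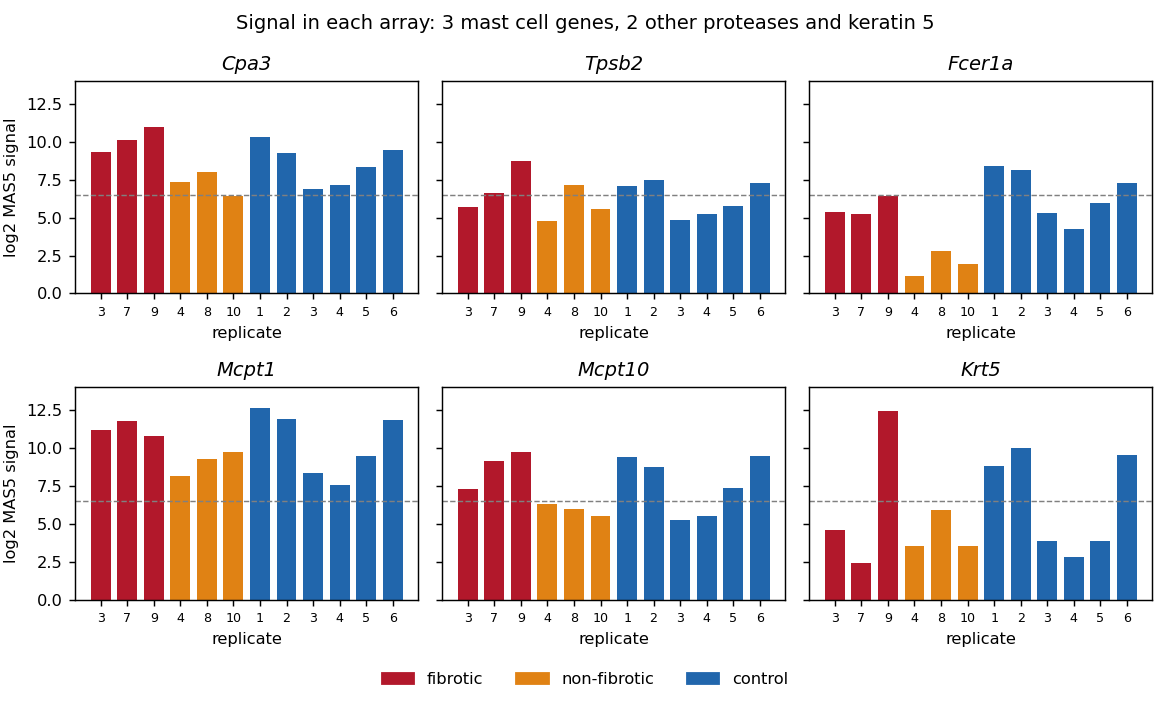
Log2 MAS5 signal on each of the 12 arrays for Cpa3, Tpsb2, Fcer1a, the proteases Mcpt1 and Mcpt10, and keratin 5 (Krt5), in fibrotic, non-fibrotic and control bronchi, with the absent level dashed. In all 6 panels controls 1, 2 and 6 are higher than controls 3, 4 and 5.

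Of 23 further granule proteases 12 had a probe set, and none was called in any comparison. Fitted differences were positive for 10 of the 12 in fibrotic against control bronchi, for 6 in non-fibrotic against control and for 9 in fibrotic against non-fibrotic. Many of these values lay below the absent level, so the directions are weakly based. With such values set to that level, the fibrotic against control difference was 0 for Mcpt4, Gzmn, Gzma and Gzmk and -0.13 for Gzmb. At an unadjusted p under 0.05 there were 2, 2 and 3 of the 12 in these comparisons, against 37.3%, 27.7% and 27.2% of all genes. Mcpt1, for which RefSeq lists the mucosal chymase names rMCP-2 and rMCP-II, read 11.18, 11.75 and 10.76 in fibrotic bronchi, 8.14, 9.26 and 9.71 in non-fibrotic bronchi, and 7.55, 10.64 and 12.65 in controls (lowest, median, highest). The fibrotic arrays were above the non-fibrotic ones, with controls on both sides. The difference between fibrotic and non-fibrotic bronchi was 2.19 ± 1.03 (log2, SE, limma adjusted p = 0.216). Mcpt10 read 7.32, 9.16 and 9.75 in fibrotic bronchi and 6.32, 5.99 and 5.49 in non-fibrotic bronchi, at least 4.67-fold higher in fibrotic bronchi, with an adjusted p of 0.103. The Mcpt genes are close paralogues, as are the 2 tryptases, and one further probe set is annotated to Mcpt8, Mcpt8l2, Mcpt9 and Mcpt10 together, so signal from one family member can reach the probes of another.

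Of 16 measured genes for the Kit ligand, cytokines, their receptors and transcription factors, 3 rose in fibrotic bronchi against controls, and none fell (4.13% and 8.38% of all genes). None was called in non-fibrotic bronchi against controls or in fibrotic against non-fibrotic bronchi. There 5 and 7 had an unadjusted p under 0.05 (27.7% and 27.2% of all genes). Mitf, a transcription factor needed for mast cell development, rose by 2.27 ± 0.30 (log2, SE, limma adjusted p = 7.0e-05). Il33, an alarmin cytokine of epithelium and stroma, rose by 3.79 ± 0.65 (adjusted p = 7.1e-04), and Il1rl1, its receptor, by 2.74 ± 0.54 (adjusted p = 0.00233). Il33 read 12.98, 12.28 and 12.85 in fibrotic bronchi and at most 10.34 in controls. Kitlg, which encodes stem cell factor, differed by 0.14 ± 0.31 (adjusted p = 0.801). Gata2, a factor of mast cell identity, read 6.69, 7.67 and 6.91 in fibrotic bronchi, 4.81, 4.74 and 3.88 in non-fibrotic bronchi, and 6.18, 6.68 and 8.32 in controls (lowest, median, highest). The non-fibrotic arrays were again the lowest, and all 3 were below the absent level, as were 3 of 6 controls. The control mean was at least 1.31-fold higher than in non-fibrotic bronchi (fitted difference -2.42 ± 0.56, adjusted p = 0.0252), and the difference was -0.52 with values below the absent level set to it. Mitf was higher in non-fibrotic bronchi than in controls, by 1.48 ± 0.30 (adjusted p = 0.0155), and these arrays did not overlap. Its rise was thus not confined to fibrotic bronchi at an adjusted p under 0.05.

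Of 16 measured genes of IgE receptor signalling, 2 rose in fibrotic bronchi against controls (4.13% of all genes), with a median difference of 1.48. All 16 differences were positive there, and 13 had an unadjusted p under 0.05 (37.3% of all genes). Macrophage markers had a median difference of 2.75 in the same comparison, and the part of other cells in these differences was not tested. Fcer1g, the gamma chain that other leukocyte receptors share, rose by 1.89 ± 0.30 (limma adjusted p = 4.1e-04), and the Src family kinase Fyn by 1.88 ± 0.45 (adjusted p = 0.00858). Against non-fibrotic bronchi Fyn was higher by 2.38 ± 0.52 (adjusted p = 0.00886) and Rasgrp1, an activator of Ras, by 2.20 ± 0.49 (adjusted p = 0.00989). All 16 differences were positive in that comparison too, and 12 had an unadjusted p under 0.05 (27.2% of all genes). None was called between non-fibrotic and control bronchi, where 1 had an unadjusted p under 0.05 (27.7% of all genes) and the median difference was -0.42.

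Of 11 other surface genes of mast cells, 3 rose and 1 fell in fibrotic bronchi against controls (4.13% and 8.38% of all genes). The anaphylatoxin receptors C3ar1 and C5ar1, which macrophages and neutrophils also carry, rose by 3.38 ± 0.57 and 3.85 ± 0.67 (log2, SE, limma adjusted p = 6.5e-04 and 8.4e-04). Cd33, a lectin of myeloid cells, rose by 2.90 ± 0.55 (adjusted p = 0.00163). Enpp3, an ectoenzyme used as a basophil and mast cell marker and also made by epithelia, fell by 2.21 ± 0.27 in fibrotic bronchi (adjusted p = 3.5e-05) and by 1.65 ± 0.27 in non-fibrotic bronchi (adjusted p = 0.00614). Of 16 genes for granule storage and mediator synthesis, Cd63, a granule membrane protein, rose by 0.80 ± 0.19 in fibrotic bronchi against controls (adjusted p = 0.00826) and Vamp8, a vesicle fusion protein, fell by 0.98 ± 0.21 (adjusted p = 0.00401). Vamp8 read 11.09, 11.36 and 11.11 in fibrotic bronchi, 11.69 and 11.73 in controls 1 and 2, and between 12.22 and 12.45 in controls 3 to 6. Srgn, the core protein of the granule proteoglycan, was higher by 2.63 ± 0.51 in fibrotic than in non-fibrotic bronchi (adjusted p = 0.00424), and Vamp8 fell there by 1.14 ± 0.24 (adjusted p = 0.00765). None of 6 genes for histamine breakdown or histamine receptors was called in any comparison. At an unadjusted p under 0.05 there were 2, both in fibrotic against control bronchi (37.3% of all genes). Hnmt, Hrh1, Hrh2, Hrh3 and Hrh4 were below the absent level on all 12 arrays, and Aoc1 on all 6 controls. These results therefore cannot tell whether those genes changed.

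**Figure D4:**
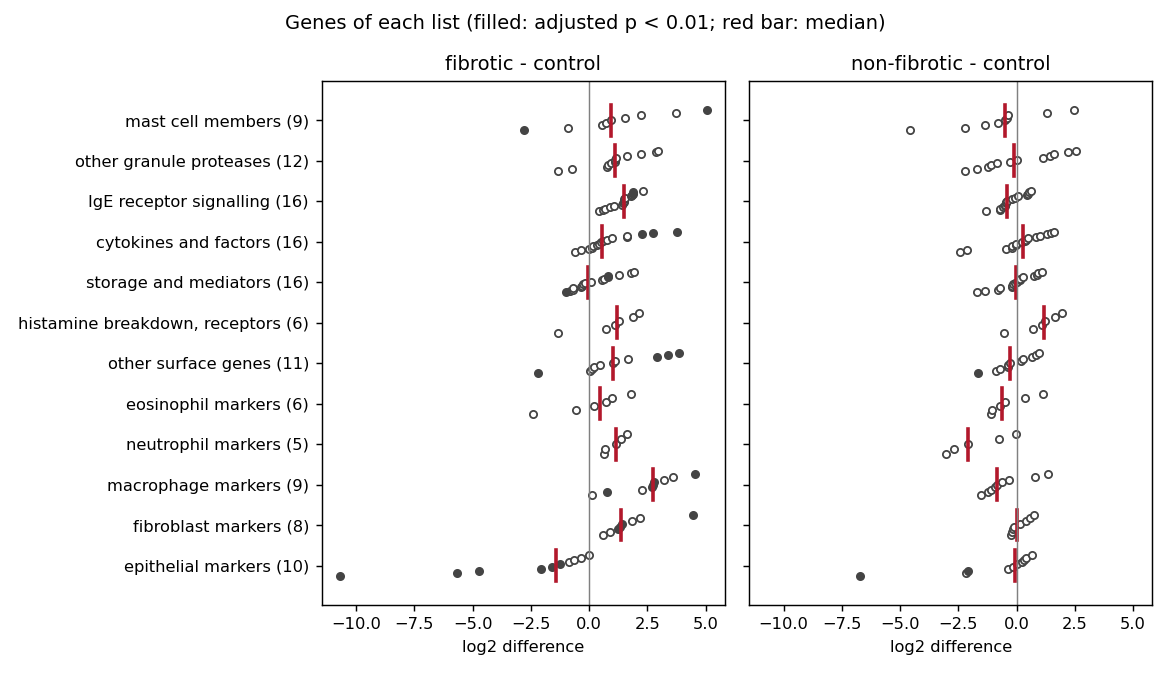
Log2 differences of the measured genes of each list, numbers in brackets, for fibrotic against control bronchi (left) and non-fibrotic against control bronchi (right), with filled points at an adjusted p under 0.01 and the median as a red bar. The median of macrophage markers was 2.75 and that of epithelial markers -1.42 in fibrotic against control bronchi, beside 0.94 for the mast cell genes.

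Markers of other cells moved with the fibrotic samples. Of 9 macrophage markers 4 rose against controls (4.13% of all genes). The summed signal of the 9 was between 14.83 and 15.65 (log2) in fibrotic bronchi, 14.36 and 14.86 in non-fibrotic bronchi, and 13.78 and 14.51 in controls. Of 8 fibroblast markers 4 rose (4.13% of all genes), with sums between 15.97 and 16.42 in fibrotic bronchi and 14.94 and 15.66 in controls. Of 10 epithelial markers 6 fell (8.38% of all genes). Sums of the 10 were between 14.30 and 14.97 in fibrotic bronchi, 15.90 and 16.32 in non-fibrotic bronchi, and 15.69 and 16.72 in controls. The secretoglobin Scgb3a1 was below the absent level on all 3 fibrotic arrays and Foxj1 on none, though Foxj1 differed from controls by -4.72 ± 0.30 (limma adjusted p = 6.3e-08). In non-fibrotic bronchi against controls 2 of the 10 epithelial markers fell (0.436% of all genes). Scgb3a1 differed by -6.73 ± 0.89 (adjusted p = 0.00161) and Dnah1 by -2.08 ± 0.30 (adjusted p = 0.00284). None of 6 eosinophil, 3 basophil, 5 neutrophil, 9 T and natural killer cell, 3 B cell or 8 smooth muscle markers was called in fibrotic against control bronchi. Of these 34 genes 4 had an unadjusted p under 0.05, against 37.3% of all genes. In fibrotic against non-fibrotic bronchi, none of these 34 was called, but median differences were 2.69 (log2) for neutrophil, 1.94 for T and natural killer cell and 2.86 for B cell markers, and positive for all 5, 9 and 3 genes. Of these, 5, 6 and 2 had an unadjusted p under 0.05 (27.2% of all genes). Of the neutrophil markers 3 passed an adjusted p under 0.05 there, all higher in fibrotic bronchi (5.64% of all genes). Macrophage markers had a median of 3.42, with 3 of 9 called as higher in fibrotic bronchi (1.47% of all genes). In non-fibrotic bronchi against controls all 5 neutrophil markers had negative differences, with a median of -2.07, and S100a9 differed by -2.67 ± 0.73 (adjusted p = 0.0448). The eosinophil receptor Ccr3 and the basophil cytokine Il4 were below the absent level on all 12 arrays. The part of these cell types in the differences of the mast cell genes was not tested.

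Across the 12 arrays, which share the 3 groups, the genes most like Cma1 were Jak1, Adamts12 and Rasgrp3 (Pearson r between 0.95 and 0.96). Those most like Mcpt1l1 were Gpx3, Cnga2 and Col16a1 (r = 0.90 each). Cpa3 went with Mcpt10, Nat1 and Nrf1 (0.95, 0.91 and 0.86), and Tpsb2 with Krt5, Kat14 and Odr4 (0.86, 0.85 and 0.80). Only Cpa3 had another mast cell protease, and only Fcer1a a factor of the lists, among its 3 nearest genes, which were Gle1, Kdm7a and Gata2 for Fcer1a (0.92, 0.91 and 0.89). Tpsab1 went with Si, Cadm4 and Bsnd (0.96, 0.92 and 0.91), Kit with Alg2, Cpsf7 and Kifc3 (0.96, 0.94 and 0.94), Ms4a2 with Tmem120b, Wapl and Bpnt2 (0.92, 0.91 and 0.87), and Hdc with Upk1a, Slc25a11 and Cdkl4 (0.97 each). Within the 9 genes the closest pairs were Cma1 with Mcpt1l1 and Tpsb2 with Cpa3, at r = 0.80 each, while Cma1 and Cpa3 had r = 0.37. Hdc had a negative r with every other gene of the 9, between -0.51 (Cpa3) and -0.04 (Fcer1a).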

How the data were processed

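RNA of laser-microdissected bronchi was amplified and hybridised to Affymetrix rat arrays, 1 array a sample. The values were intensity signals that the authors deposited after MAS5 summarisation and scaling, and the probe annotation is that of a 3′ array, while the series text names a whole-transcript array. Of 31099 probe sets 57 controls were left out. Of the 31042 tested, 20826 had 1 gene symbol, 436 had several and 9780 had none. Signals were taken to log2 and fitted with limma 3.58.1 (R 4.3.3) as 1 model of 3 groups with an intensity trend, and p-values were adjusted over all 31042 probe sets. A call needs an adjusted p under 0.01, the level stated for the study's error-weighted analysis of variance, which was not rerun. Its gene lists used a p under 0.001 with a fold over 2, tried here as an alternative without adjustment. The fit was tested on simulated data. The number of arrays limits the precision. Each p-value sets a group difference against the spread of these arrays within groups, with arrays taken as independent. The genes and lists were chosen with earlier results of these data known. Named genes were all measured mast cell genes, up to 4 called genes a list and comparison by smallest p, or 2 where none was called, with others named for a stated reason after their values were seen, and the 3 genes nearest to each by correlation. Alternatives covered the threshold, filter, floor, pseudocount, normalisation, variance model, control set, probe set choice and each array left out.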

Additional observations from a re-analysis of the deposited data

Results flagged for a closer look

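Of the 9 mast cell genes screened for a control array far from the other 5, Kit met the limit: control 2 at 7.94 stood apart from the next highest control by 0.741 of the range of the 6 controls, above Dixon's 95% critical value for 6 samples. Chance flags about 1 in 20 groups.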

How the results depend on the processing

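Of the values of single genes under the alternatives, 648 kept their direction and their side of the threshold, 25 passed it only under the alternative, 22 no longer passed it and 22 changed direction. The count of 2 called genes in fibrotic against control bronchi became 1 with the lowest 40% of probe sets dropped (which leaves Cpa3 and Hdc of the 9), and 1 with controls 3 to 6 only. It became 0 without the intensity trend, in the linear model without moderation, with controls 1 and 2 only, and with the number range as a block. It ranged between 0 and 3 with single arrays left out. It became 3, with Cma1 added, at an adjusted p under 0.05, at an unadjusted p under 0.001 with a fold over 2, with the floor, the pseudocount, quantile normalisation, median centring, only the arrays compared, and the mean of a gene's probe sets. With array quality weights it stayed at 2 with Cma1 in place of Mcpt1l1. The count of 0 in non-fibrotic against control bronchi became 2 at an adjusted p under 0.05. It became 1 at an unadjusted p under 0.001 with a fold over 2, with quantile normalisation and with the number range block. With single arrays left out it lay between 0 and 1. The count of 0 in fibrotic against non-fibrotic bronchi became 4 at an adjusted p under 0.05. It became 1 with quantile normalisation (Kit) and with the number range block (Fcer1a). With single arrays left out it lay between 0 and 2 (Cma1 and Kit without non-fibrotic 4).

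Over its alternatives the adjusted p in fibrotic against control bronchi lay between 2.0e-04 and 0.318 for Hdc, between 0.00492 and 0.0602 for Mcpt1l1 and between 6.2e-04 and 0.0806 for Cma1, which passed its threshold under 11 of 27. For Fcer1a in non-fibrotic against control bronchi it lay between 0.00584 and 0.186. Called genes among all genes numbered 286 to 3197 in fibrotic against control bronchi, 2 to 933 in non-fibrotic against control and 216 to 1796 in fibrotic against non-fibrotic. With median centring, 15 rose and 66 fell in non-fibrotic bronchi against controls, beside 26 and 62.

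The differences that changed direction were all ones not called in their own comparison. In fibrotic against control bronchi Tpsb2 was -0.26 and Tpsab1 -0.029 with controls 1 and 2 only and with the number range block. Tpsb2 lay between -0.11 (without fibrotic 9) and 1.41 with single arrays left out. In non-fibrotic against control bronchi Cma1 was 0.55 with the floor, 0.063 with the pseudocount, and 0.42 with controls 1 and 2 only and with the number range block. With single arrays left out Cma1 lay between -1.63 and 1.01 (without non-fibrotic 8). In the same comparison Ms4a2 was 0.29 with the floor and between -1.36 and 0.64 (without non-fibrotic 4) with single arrays left out. Hdc was 0.33 with controls 1 and 2 only and with the number range block. Tpsb2 was 0.073 with controls 3 to 6 only and between -1.08 and 0.10 (without non-fibrotic 4) with single arrays left out. In fibrotic against non-fibrotic bronchi Tpsab1 was 0.66 with the floor, 0.39 with the pseudocount, 0.25 with quantile normalisation, and between -2.40 (without fibrotic 9) and 0.80 (without fibrotic 7) with single arrays left out, turning positive also without fibrotic 3 or non-fibrotic 10. The cause was not tested. No paired analysis was possible because the groups share at most 1 replicate number and the labels tie no 2 arrays to one rat.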
